A study of Mus musculus with 5 samples.

Results

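Mature Il1b-positive neutrophils were examined in single-cell RNA-seq (scRNA-seq) of whole mouse bone marrow (BM). Cells were selected on 3 measured values, counted as unique molecular identifiers (UMIs, 1 per captured RNA molecule). The S100a8 and S100a9 transcripts together had to make up at least 8% of the UMIs of a cell, the Ngp and Camp transcripts together less than 2%, and Il1b and Cxcl2 together had to give at least 2 UMIs. Among cells that passed a filter of 200 or more genes and under 20% mitochondrial UMIs, 2339 of 21520 whole BM cells met this rule, and 25975 cells passed the same filter in all 5 libraries of the series. The S100, Ngp, Camp, Il1b and Cxcl2 levels that chose the cells are described below and support nothing.

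Neutrophils are made in the BM from progenitors that load azurophil granules first, then specific and gelatinase granules, and mature cells are held in reserve until signals release them into blood. Ngp and Camp belong to the specific granule stage and are shut down as cells mature, while S100a8 and S100a9, the subunits of calprotectin, stay abundant. Mature cells carry Cxcr2, the receptor for the chemokine Cxcl2, and can transcribe Il1b, the precursor of the inflammatory cytokine interleukin-1 beta, when they are stimulated or handled.

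The mice were BALB/c, bought at 4 to 8 weeks old, with no genetic change given in the sources, and were untreated (naive) or had received 150 mg/kg of the alkylating agent cyclophosphamide (CTX) into the peritoneum 2 days (D2 CTX) or 7 days (D7 CTX) before BM was taken. Red cells were lysed and dead cells removed, equal numbers of cells from 3 mice were mixed, and 1 library was made per condition with 10x Genomics 3' V3 reagents. The labels call the cells CD45+ BM mononuclear cells. A further pair of libraries held CD11b+Ly6Chi monocytes sorted from naive and CTX BM and was not used for the comparisons. After the filter, the naive library held 7104 cells and 46065849 UMIs, the D2 CTX library 6126 cells and 33940059 UMIs, and the D7 CTX library 8290 cells and 67921924 UMIs. Each condition was a single pooled library, so the conditions could not be tested against each other. Differences are given with exact 95% intervals that cover counting error only, not the spread between mice, libraries or handling. The 3 libraries shared between 6 and 16 cell barcodes per pair, and no pair of members had the same barcode.

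The share of these neutrophils was higher 2 days after CTX than in naive BM, and lower at day 7. They made up 9.04% of kept cells in naive BM (642 cells, Clopper-Pearson interval 8.38 to 9.73%), 17.2% at D2 CTX (1051 cells, 16.2 to 18.1%) and 7.79% at D7 CTX (646 cells, 7.22 to 8.39%). The log2 ratio over naive was 0.92 at D2 (0.78 to 1.07) and -0.21 at D7 (-0.37 to -0.05). Among cells that met the S100 limit alone, called S100-high neutrophils here, the share was 19.8% in naive, 37.4% at D2 and 9.62% at D7. The D7 value rested on 5101 cells above the Ngp and Camp limit, called immature neutrophils here, against 2019 in naive and 1145 at D2. Cells called mature here were S100-high with low Ngp and Camp, which is a rule and not a measure of stage. Among them, members were 52.6% in naive, 63.0% at D2 and 40.0% at D7.

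Depth differed between libraries and entered the rule. The median member had 2316 UMIs and 734 genes in naive, 2039 UMIs and 801 genes at D2, and 3723 UMIs and 988 genes at D7. Cells were also thinned at random to 1000 UMIs before the rule was applied, which left out shallower cells and kept 6819 of 7104 in naive, 5527 of 6126 at D2 and 8217 of 8290 at D7. Members were then 5.32% of cells in naive (4.80 to 5.88%), 9.59% at D2 (8.83 to 10.4%) and 3.27% at D7 (2.90 to 3.68%). At this equal depth the order of the libraries was unchanged, and the D7 share lay further below naive. Shares within 1 library say nothing of cell numbers per mouse.

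**Figure D1:**
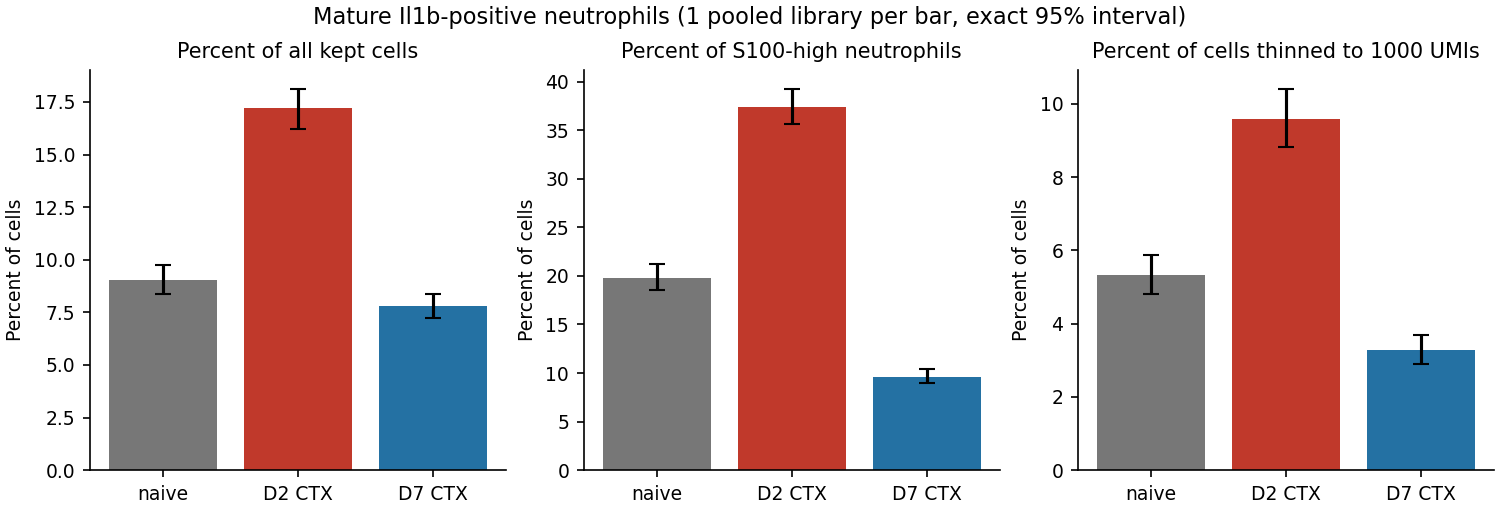
Percent of cells that met the rule in each library (bars, 1 pooled library of 3 mice each, whiskers exact 95% intervals), of all kept cells, of S100-high neutrophils and of the cells with at least 1000 UMIs after thinning to that depth. The D2 CTX bar is highest and the D7 CTX bar lowest in each panel, at 17.2% and 7.79% of kept cells.

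The label was checked against its markers, of which Cxcr2 and Clec4d had no part in the rule. Cxcr2 stood at 1073 UMIs per 1000000 (CPM) in naive members, 1437 CPM at D2 and 701.4 CPM at D7. B lineage cells (at least 3 UMIs of Cd79a and Cd79b) should lack it and served as the background, and there Cxcr2 was at 5.95, 28.8 and 4.41 CPM. Clec4d, a C-type lectin receptor of myeloid cells, was at 334.8 CPM in naive, 550.4 CPM at D2 and 213.6 CPM at D7, against at most 17.2 CPM in B lineage cells. After thinning to 1000 UMIs, which left out 44 naive, 191 D2 and 4 D7 members, 64.5% of naive, 74.5% of D2 and 49.1% of D7 members had a Cxcr2 UMI, against 0.593%, 3.67% and 0% of B lineage cells (0% of 216 cells allows up to 1.39%). Without thinning these were 90.2%, 93.1% and 90.4% of members. Csf3r, the receptor for granulocyte colony-stimulating factor, Ly6g and Mmp8 were present in all 3 libraries, at 804.9, 1077 and 2140 CPM in naive members.

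Il1b was not found in every member. In naive BM 43.5% of members carried both genes, 26.6% Il1b alone and 29.9% Cxcl2 alone. At D2 60.9% carried both genes, and at D7 34.4% did, with 45.5% carrying Il1b alone. The median member had 4 UMIs of both genes together in naive, 5 at D2 and 4 at D7, and 15.4%, 27.9% and 18.6% had at least 10. Over members, Il1b was at 1123 CPM in naive, 1455 CPM at D2 and 1004 CPM at D7, and Cxcl2 at 1200, 1661 and 538.1 CPM. Members held 72.0% of all Il1b UMIs of kept naive cells, 67.0% at D2 and 74.7% at D7, a description of the rule. The B lineage level of Cxcl2 was 3.55 CPM in naive, 35 CPM at D2 and 1.77 CPM at D7. S100a8 in B lineage cells was at 1039 CPM in naive, 3396 CPM at D2 and 1789 CPM at D7. Free RNA and doublets were not separated here.

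The cut on Il1b and Cxcl2 fell inside a continuous range. Mature cells with 2 UMIs of both genes, just inside, numbered 149 in naive, 195 at D2 and 160 at D7, and those with 1 UMI, just outside, 231, 289 and 268. Cxcr2 was at 885.8 CPM just inside and 800.6 CPM just outside in naive, at 1137 and 937.7 CPM at D2, and at 575.7 and 513.6 CPM at D7. The other limits had few cells beside them. Between 8 and 9% S100 UMIs there were 10, 31 and 3 members, and between 7 and 8% 10, 29 and 4 cells that met the rest of the rule. Between 1.5 and 2% Ngp and Camp UMIs there were 18, 44 and 34 members, against 14, 31 and 24 cells from 2 to 2.5%.

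**Figure D2:**
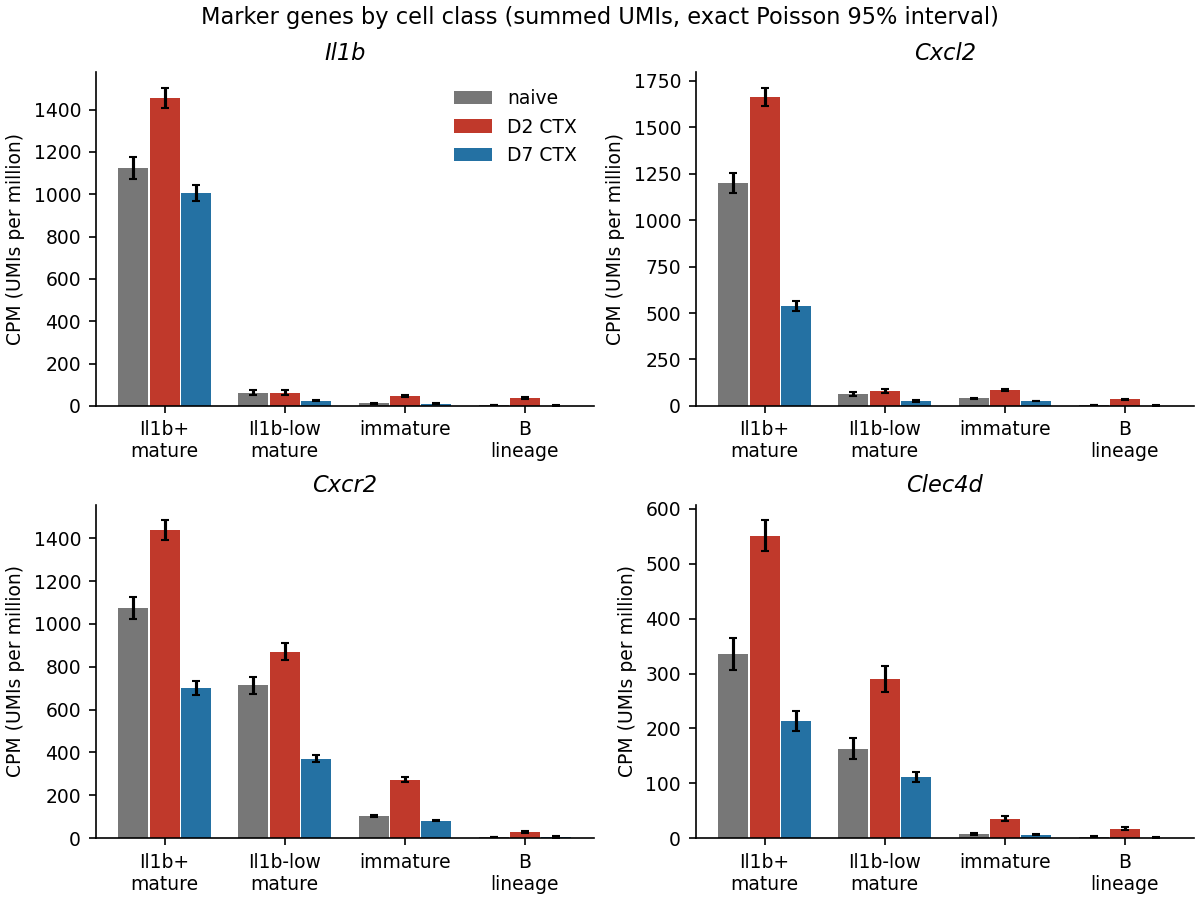
Levels of Il1b, Cxcl2, Cxcr2 and Clec4d in CPM summed over the cells of each class, by library (bars, whiskers exact Poisson 95% intervals). Il1b and Cxcl2 chose the cells, while Cxcr2 and Clec4d did not and were lower in Il1b-low mature and immature neutrophils than in Il1b-positive mature neutrophils in each library.

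To place the pair of rule genes in the genome, the 200 bases before their start sites are given from the RefSeq promoter table (GRCm38.p6). Il1b lies at chr2:129364570-129371139 on the minus strand and Cxcl2 at chr5:90903871-90905938 on the plus strand (GENCODE M21). The RefSeq start of Cxcl2 lies downstream of this GENCODE start, so the end of its window falls inside the gene as placed here. Capitals mark matches on either strand to GGGNNNNNCC, a loose form of the site bound by NF-kB, the factor that drives many inflammatory genes. Of the 250 bases before the start, 45.8% of all 32851 promoters in the table held such a match, so a match is common.

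Il1b (chr2:129371140-129371339, minus strand): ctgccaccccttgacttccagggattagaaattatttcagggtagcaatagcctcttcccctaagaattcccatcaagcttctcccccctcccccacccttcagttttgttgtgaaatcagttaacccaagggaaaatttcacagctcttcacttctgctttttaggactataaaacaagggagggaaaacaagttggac
Cxcl2 (chr5:90903699-90903898, plus strand): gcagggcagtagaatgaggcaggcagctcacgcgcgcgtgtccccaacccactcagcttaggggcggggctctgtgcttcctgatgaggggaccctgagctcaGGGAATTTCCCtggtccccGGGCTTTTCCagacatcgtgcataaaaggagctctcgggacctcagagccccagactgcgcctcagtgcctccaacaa

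The Cxcl2 stretch held 3 matches, of which the first pair overlap, and the Il1b stretch none, which says only that these letters are not in this window.

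The most abundant transcripts were those of calprotectin. S100a8 and S100a9 took 33.5% of member UMIs in naive, 25.6% at D2 and 35.8% at D7, and Retnlg, a secreted resistin-like protein of neutrophils, took 3.94%, 2.74% and 4.19%. The median log2 ratio over all genes compared was 0.34 for D2 over naive and -0.16 for D7 over naive, and ratios are also given below relative to these medians. Mitochondrial genes made up 0.814% of member UMIs in naive, 1.36% at D2 and 1.08% at D7.

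Members were next set against mature neutrophils with fewer than 2 Il1b and Cxcl2 UMIs (Il1b-low mature, 578 cells in naive, 617 at D2 and 968 at D7), as a description, since the rule separated these classes. A gene was counted as apart at 1 log2 unit or more, on CPM with 1 CPM added, among genes with at least 100 UMIs over both classes and at least 50 CPM in 1 of them. Leaving out the rule genes, 25 genes (1.14% of 2187) were higher and 142 (6.49%) lower in naive members. At D2 45 genes (1.83% of 2462) were higher and 20 (0.812%) lower, and at D7 47 (2.33% of 2014) were higher and 237 (11.8%) lower. Relative to the median gene these counts were 15 and 177 in naive, 30 and 26 at D2, and 36 and 262 at D7. In all 3 libraries 10 genes (0.574% of 1741) were higher and 11 (0.632%) lower.

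The 10 genes higher in each library were Socs3, Fgl2, Pla2g7, St3gal6, Gm5150, Gm13822, Slc7a11, Gcnt2, Csf3r and Ifitm1. Socs3, a feedback inhibitor of cytokine receptors including that of granulocyte colony-stimulating factor, had log2 ratios of 1.58 in naive, 1.63 at D2 and 2.54 at D7. Pla2g7, which degrades platelet-activating factor, stood at 182.0, 243.7 and 290.0 CPM in members and 69.1, 81.1 and 84.6 CPM in Il1b-low cells. Slc7a11, the cystine transporter, had ratios of 1.10, 1.61 and 1.05. Csf3r was at 804.9, 1129 and 685.9 CPM in members and at 400.4, 543.4 and 283.2 CPM in Il1b-low cells. Its ratios of 1.01 in naive and 1.05 at D2, and those of Ifitm1, 1.05 and 1.02, lay close to the limit of 1 log2 unit.

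Immediate early genes are switched on within minutes of a stimulus. None of 14 compared was 1 log2 unit higher in naive members than in Il1b-low cells, 4 of 15 were at D2 and 6 of 14 at D7, where 1.14%, 1.83% and 2.33% of all genes were, with list medians of 0.62, 0.82 and 0.84 against 0.08, 0.08 and 0.09 over all genes. Egr1 was at 618.5 CPM in naive members and 313.7 CPM in Il1b-low cells, at 743.7 and 213.7 CPM at D2, and at 252.8 and 60.6 CPM at D7. Junb was also higher in members than in Il1b-low cells, with 2110 against 1149 CPM, 1576 against 672.1 CPM, and 1637 against 634.2 CPM. Such genes also respond to cell preparation, whose part in the result was not tested. Among the feedback genes of NF-kB none of the 6, 9 and 7 compared reached 1 log2 unit, and their medians were 0.57, 0.63 and 0.77.

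The 11 genes lower in each library were Elane, Ms4a3, Prtn3, Ube2c, Ctsg, Mpo, Top2a, Hbb-bs, Ssr4, Serpinb1a and Ltf. Elane, Prtn3, Ctsg and Mpo encode the proteases and the peroxidase of azurophil granules, and Top2a and Ube2c act in DNA replication and mitosis. Elane was at 151.6 CPM in naive members and 2287 CPM in Il1b-low cells, at 12.3 and 357.9 CPM at D2, and at 313.3 and 3385 CPM at D7. The Il1b-low class was mixed, and the word mature in its name states the rule only. Members lay further below it in Elane, with log2 ratios of -3.91 in naive and -4.75 at D2, than below immature neutrophils, with -2.24 and -4.43. Early cells rich in azurophil transcripts were thus not kept out of the Il1b-low class. Immunoglobulin genes were among its leading transcripts, with Igha at 2737 CPM in naive Il1b-low cells against 27.8 CPM in members, and 10.0%, 12.3% and 13.3% of its cells in naive, D2 and D7 carried at least 3 UMIs of markers of B, T, NK, plasmacytoid, macrophage, monocyte, eosinophil, basophil or mast cells, against 5.61%, 9.13% and 3.87% of members. Without such cells in either class, 4 genes were higher and 2 lower in all 3 libraries.

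Against immature neutrophils the differences were wider, again as a description, since the rule split these classes on Ngp and Camp. In naive BM 624 of 2345 compared genes (26.6%) were at least 1 log2 unit higher in members and 322 (13.7%) lower, without the rule genes. At D2 these were 610 (23.1%) and 257 (9.74%) of 2639, and at D7 512 (24.6%) and 296 (14.2%) of 2080. Relative to the median gene they were 472 and 482 in naive, 329 and 452 at D2, and 377 and 420 at D7. Of the chemoattractant receptors 6 of 9 compared in naive were higher, with a median of 1.94 against 0.28 for all genes, and 1 was lower, the leukotriene B4 receptor gene Ltb4r1 (-1.83, interval -2.08 to -1.62). Of 10 compared cell cycle genes 9 were lower, with a median of -2.97. Ccl6, a chemokine of myeloid cells, stood at 2650 CPM in naive members and 55.5 CPM in immature cells. Ltf, the specific granule protein lactoferrin, went the other way, at 209.1 against 8520 CPM. Ngp and Camp, which split the classes, belong to the same granule stage, so this difference is no independent support.

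At D2 CTX, 131 genes (5.49% of 2384) were at least 1 log2 unit higher in members than in naive BM and 11 (0.461%) lower. Relative to the median gene, 46 were higher and 34 lower, so that the share of higher genes among those apart was 92.3% by the first count and 57.5% by the second. The D2 and D7 comparisons share the naive members. Interferon-stimulated genes formed the list with most genes apart at D2.

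Of 25 listed interferon-stimulated genes, 17 were compared, and 11 of them were at least 1 log2 unit higher at D2 (Ifit1, Isg15, Rsad2, Ifitm1, Irf7, Oasl1, Bst2, Slfn4, Slfn5, Cmpk2 and Trim30a), where 5.49% of all genes were. None was lower. The list median was 1.18, against 0.34 for all genes, and 8 of the 17 stayed at least 1 log2 unit above the median gene. Ifitm1, a membrane protein that restricts virus entry, was at 218.6 CPM in naive, 780.3 CPM at D2 and 336.9 CPM at D7. Its log2 ratio was 1.83 at D2 (1.67 to 2.00) and 0.62 at D7 (0.44 to 0.81). Rsad2, the antiviral enzyme viperin, was at 50.5, 209.0 and 38.8 CPM, a ratio of 2.03 at D2 (1.71 to 2.40) and -0.37 at D7 (-0.82 to 0.06). Isg15, a ubiquitin-like modifier, was at 96.0, 215.7 and 111.3 CPM, with ratios of 1.16 (0.91 to 1.43) and 0.21 (-0.08 to 0.51).

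The share of members with a UMI moved with these levels. At 1000 UMIs a cell, Ifitm1 was found in 13% of naive members (10.4 to 16%), 37.2% at D2 (34.0 to 40.5%) and 19.5% at D7 (16.5 to 22.7%), and without thinning in 21.3%, 53% and 31.7%. Isg15 was found in 8.36%, 17.8% and 10.6% after thinning. The D2 level of Ifitm1 was 70.7 CPM in B lineage cells, of Isg15 23.6 CPM and of Rsad2 6.53 CPM. The D2 rise of these genes was not confined to members. The log2 ratio of members over immature neutrophils was 4.49 in naive and 3.68 at D2 for Ifitm1. It was 2.67 and 2.33 for Isg15, and 3.32 and 3.41 for Rsad2. For Slfn5 it was wider at D2, at 3.62 against 2.37 in naive. Ifitm2 and Ifitm3 had D2 ratios of 0.26 and 0.03, and at D7 none of 12 compared genes of the list was 1 log2 unit apart from naive, with a median of 0.11. Bst2 and Irf8 are also abundant in plasmacytoid dendritic cells. Their D2 ratios of 1.79 and 1.53 became -0.46 and -0.43 once members with markers of other cell types were left out. Neither gene was among the markers counted for this, though Tcf4 and other plasmacytoid markers were.

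**Figure D3:**
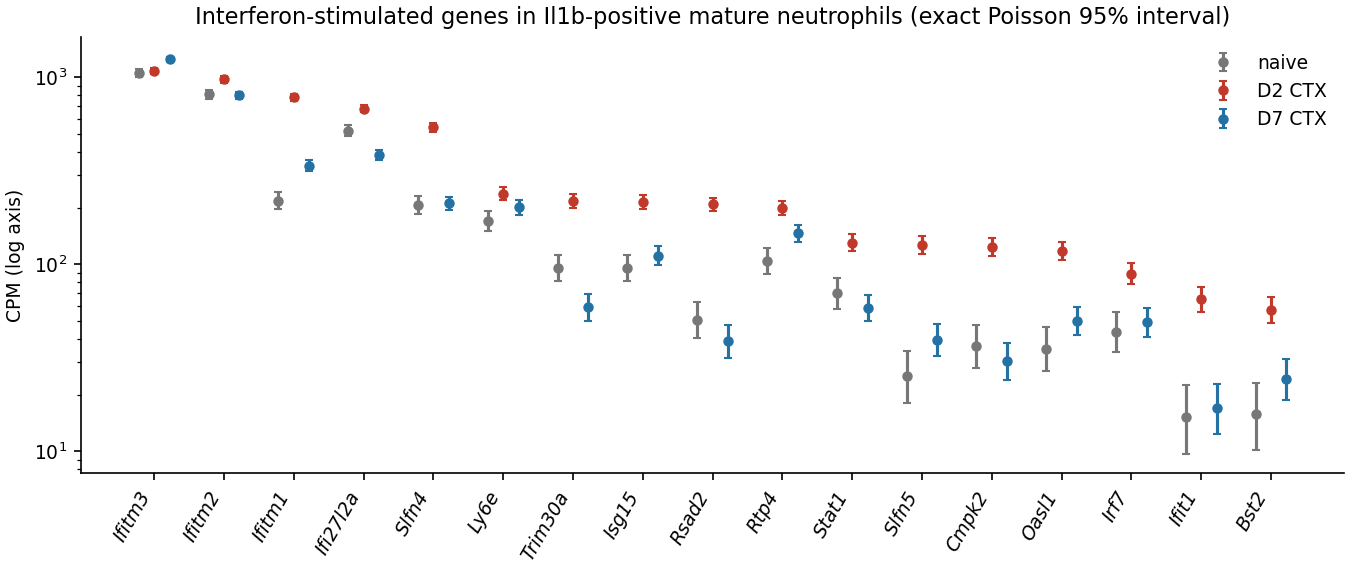
Level of each of the 17 compared interferon-stimulated genes in Il1b-positive mature neutrophils of the 3 libraries (points, CPM on a log axis, whiskers exact Poisson 95% intervals). The D2 CTX point is the highest for most genes, as for Ifitm1 at 780.3 CPM, while Ifitm3 was highest at D7 CTX.

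The bases before the start sites of a few of these genes are shown because their levels moved together at D2. Capitals mark matches on either strand to GAAANNGAAA, the core of the element through which interferon acts on its target genes. In the 250 bases before the start, 2.98% of all promoters held a match, and 11 of the 19 listed genes with an entry did (57.9%). The list was counted per gene, with a match in any of its promoters, and the background per promoter. The list holds genes already known to respond to interferon, so its high share was set in advance and supports nothing about these cells. Of the 11 genes apart at D2 those with a match were Bst2, Ifit1, Isg15, Rsad2, Slfn5 and Trim30a. Gbp2, Ifit3, Ifit3b, Ifitm2 and Stat2, which were not among these genes, also held a match.

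Rsad2 (chr12:26456453-26456652, minus strand): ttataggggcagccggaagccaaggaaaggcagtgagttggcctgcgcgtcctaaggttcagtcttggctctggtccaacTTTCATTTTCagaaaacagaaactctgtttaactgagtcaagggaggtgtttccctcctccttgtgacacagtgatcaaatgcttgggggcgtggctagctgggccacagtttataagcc
Isg15 (chr4:156200819-156201018, minus strand): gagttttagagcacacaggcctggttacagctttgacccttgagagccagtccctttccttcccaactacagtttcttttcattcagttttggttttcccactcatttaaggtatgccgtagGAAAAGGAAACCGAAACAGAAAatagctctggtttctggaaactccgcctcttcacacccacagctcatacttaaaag
Ifit1 (chr19:34640689-34640888, plus strand): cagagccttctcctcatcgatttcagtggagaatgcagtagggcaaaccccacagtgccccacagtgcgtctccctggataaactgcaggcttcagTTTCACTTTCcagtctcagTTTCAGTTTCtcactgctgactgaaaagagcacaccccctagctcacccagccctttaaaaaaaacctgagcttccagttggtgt

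Within the 200 bases shown, Rsad2 held 1 match, Ifit1 2 matches and Isg15 3 that overlap. The Ifit1 window also runs past the GENCODE start of that gene, chr19:34640871.

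Other genes higher at D2 had different roles. Wfdc17, a small secreted protein of activated myeloid cells, was at 88.4 CPM in naive, 642.6 CPM at D2 and 406.7 CPM at D7, with ratios of 2.85 (2.61 to 3.12) and 2.19 (1.95 to 2.47). It was found in 7.19% of naive members at 1000 UMIs, 29.0% at D2 and 19.6% at D7. Members held 6.24% of all its UMIs in naive, 48.0% at D2 and 22.2% at D7. In Il1b-low mature cells it was at 63.1, 186.5 and 68.4 CPM. Hif1a, the oxygen-regulated transcription factor, was at 68.2 CPM in naive, 206.7 at D2 and 53.1 at D7. Acod1, which makes itaconate, was at 47.4, 134.7 and 20.5 CPM, and Il1r2, the decoy receptor for interleukin-1, at 83.4, 203.4 and 41.1 CPM. Ccl3 and Ccl4, inflammatory chemokines, had D2 ratios of 1.33 (0.91 to 1.82) and 1.59 (1.20 to 2.05), of which 1 cell gave 76 of the 295 Ccl4 UMIs. Ccl6 was lower at D2, at 1680 against 2650 CPM.

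Among 16 listed p53 targets, which DNA damage induces, 5 were compared at D2 and 1 was apart, on the higher side, where 5.49% of all genes were. This was Ccng1, at 19.6 CPM in naive, 85.5 CPM at D2 and 17.1 CPM at D7, a D2 ratio of 2.07 (1.58 to 2.72). Cdkn1a, the cell cycle inhibitor p21, was under the level needed for the comparison and stood at 5.69, 42.2 and 5.43 CPM. Both were as high or higher at D2 outside these cells, with Ccng1 at 192.6 CPM in immature neutrophils and 185.3 CPM in B lineage cells.

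The 11 genes lower at D2 included the azurophil granule genes Elane, Prtn3, Ctsg and Mpo. Of 8 listed azurophil genes 5 were compared, 4 were lower, where 0.461% of all genes were, and none higher. Elane, a neutrophil elastase, was at 151.6 CPM in naive, 12.3 CPM at D2 and 313.3 CPM at D7. It was found in 27.1% of naive members, 2.85% at D2 and 25.7% at D7 (13%, 0.814% and 9.5% at 1000 UMIs). In B lineage cells it was at 127.5 CPM in naive, 357.4 CPM at D2, where 51 of 1705 cells held it, and 298.3 CPM at D7. At D7 3 of the 5 compared azurophil genes were at least 1 log2 unit higher, where 0.782% of all genes were, but 1 member held 293 of the 808 Elane UMIs. With cells thinned to 1000 UMIs the D7 ratios of these 3 genes were -0.79 for Elane, -0.14 for Prtn3 and -0.33 for Ctsg. Of 8 compared specific granule genes, among them Ngp and Camp, which the rule used, 1 was at least 1 log2 unit higher at D2, where 5.49% of all genes were. This was Ltf, at 460.9 against 209.1 CPM, a ratio of 1.14 or 0.80 relative to the median gene. Gzma and Fn1 were lower too, but 3 naive cells held all 108 Gzma UMIs and 1 naive cell 28 of the 86 Fn1 UMIs.

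Some genes among the 10 highest at D2 were not spread over the members. Cxcl12, a chemokine of stromal cells, was at 74.3 CPM at D2 and 3.16 CPM in naive, but its 199 UMIs lay in 21 of 1051 members. Ms4a1 and Tcf4, markers of B cells and plasmacytoid dendritic cells, were in 39 and 59 members. Dennd4a, in contrast, was found in 402 D2 members and 55 naive ones, with a ratio of 2.38 (2.04 to 2.80), and Slfn5 in 180 and 24. Gm10076 had a ratio of 3.32 but was also at 717.4 CPM in D2 B lineage cells, against 83.6 CPM in naive ones. BC117090, of the stefin A cluster, completed the 10 with Wfdc17, Ccng1 and Ifit1.

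At D7 CTX, 16 genes (0.782% of 2045) lay 1 log2 unit or more above naive members and 63 (3.08%) as far below, or 27 and 35 relative to the median gene (20.3% and 43.5% higher). The higher genes were led by the stefin A cluster of chromosome 16, which encodes cysteine protease inhibitors of myeloid cells.

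Of 8 listed stefin A genes, 7 were compared at D7, all were above naive and 5 were at least 1 log2 unit higher (Stfa2, Stfa3, BC100530, BC117090 and Gm5416), where 0.782% of all genes were. The list median was 1.59, against -0.16 for all genes. At D2 1 of the 6 compared, BC117090, was higher, where 5.49% of all genes were, and the median was -0.04. Stfa2 (chr16:36403992-36408457, minus strand) was at 542.1 CPM in naive, 542.2 CPM at D2 and 3339 CPM at D7, a D7 ratio of 2.62 (2.52 to 2.73). Stfa3 (chr16:36450537-36455392, minus strand) was at 216.1, 217.6 and 1582 CPM, a ratio of 2.87 (2.71 to 3.04). BC100530 (chr16:36359382-36367748, minus strand), the most abundant, was at 2694, 1872 and 9235 CPM, a ratio of 1.78 (1.73 to 1.82). At 1000 UMIs, Stfa2 was found in 14.5% of naive members, 22% at D2 and 44.7% at D7, and BC100530 in 47.8%, 44.8% and 76.0%. These genes are close copies of each other, and reads may have been split among them, so each value is less certain than their sum of 7388 CPM in naive, 6361 CPM at D2 and 19974 CPM at D7.

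The D7 level was not particular to members. Stfa2 was at 2577 CPM in Il1b-low mature and 471.2 CPM in immature D7 neutrophils, against 407.5 and 24.4 CPM in naive BM, and at 2.21 CPM in D7 B lineage cells. Asprv1, an aspartic protease, had the same order, with 258.4 CPM in naive members, 319.4 CPM at D2 and 1408 CPM at D7, a ratio of 2.44 (2.30 to 2.60). It was found in 17.4% of naive, 21.6% of D2 and 56.9% of D7 members at 1000 UMIs, and its D7 level in Il1b-low cells was 792.4 CPM. Upp1, Hebp1 and Ceacam10 were also higher at D7, with ratios of 1.32, 1.26 and 1.24. Steap4 had 1.42 at D7 and 1.83 at D2, and Apoe, a lipid carrier of macrophages, had 1.24 at D7 but lay in 77 of 646 members.

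**Figure D4:**
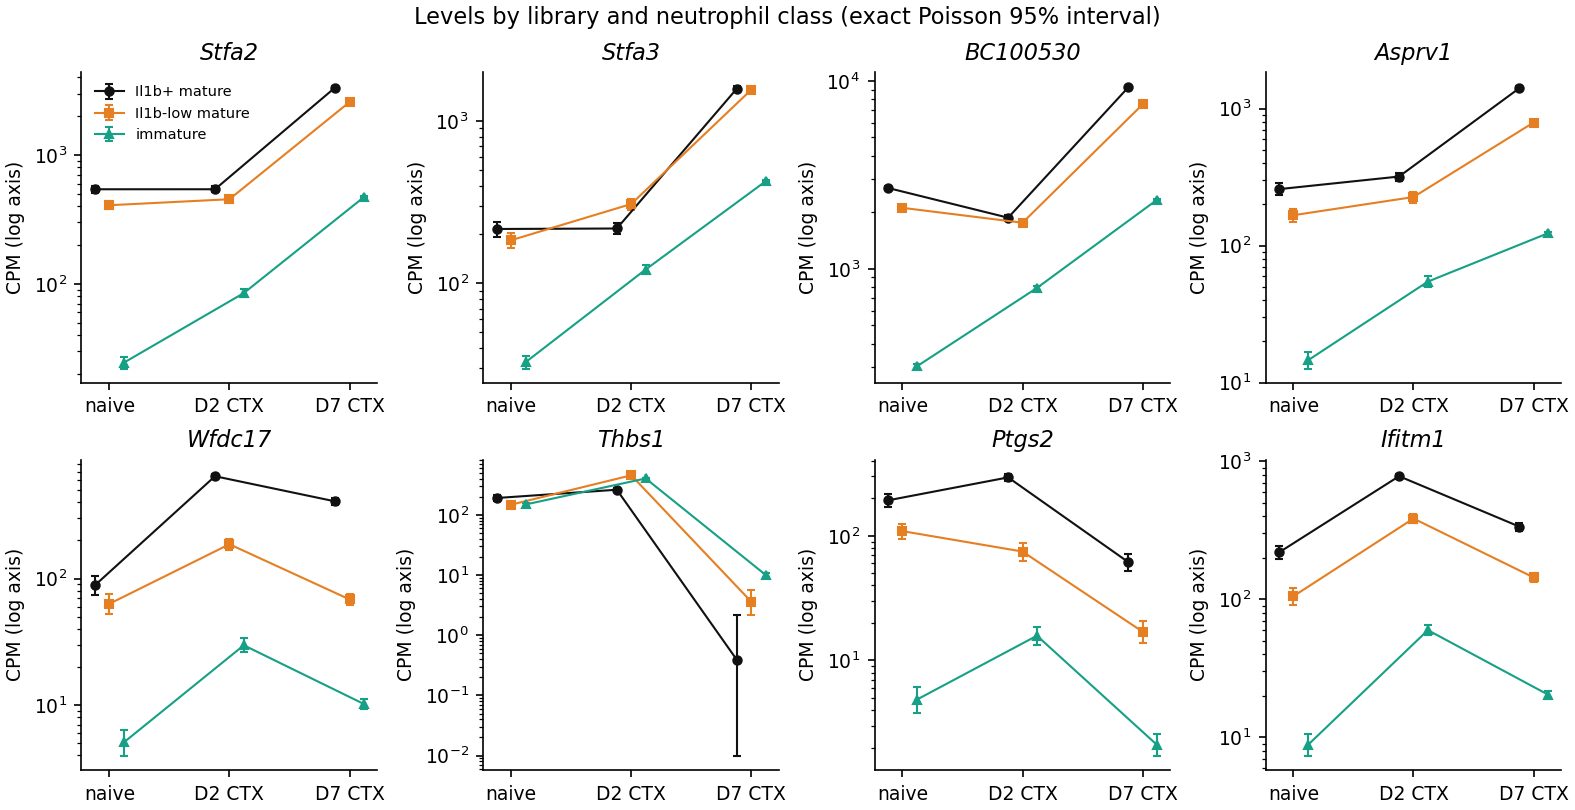
Levels of 8 genes by library in Il1b-positive mature, Il1b-low mature and immature neutrophils (CPM on a log axis, whiskers exact Poisson 95% intervals, lines join the same class). The stefin genes and Asprv1 were highest at D7 CTX in all 3 classes, and Thbs1 in members was at 0.388 CPM at D7 CTX.

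At D7, of 6 compared genes of the interleukin-1 and inflammasome list 4 were at least 1 log2 unit lower, Il1rn, Il1r2, Nlrp12 and Il18rap, where 3.08% of all genes were, and 1 of them, Il1rn, lay that far below the median gene, with Nlrp12 at the limit. Il1b, which the rule used, was among the 6, and Cxcl2 among the 63 lower genes. Il1rn, the natural antagonist of the interleukin-1 receptor, was at 99.8 CPM in naive, 112.3 at D2 and 38.0 at D7, a ratio of -1.37 (-1.77 to -1.02). Nlrp3, an inflammasome sensor, was at 142.8, 197.8 and 79.1 CPM, a ratio of -0.84 (-1.13 to -0.57). Outside this list, Ptgs2, the inducible cyclooxygenase that makes prostaglandins, was at 192.7, 294.4 and 61.6 CPM, a ratio of -1.63 (-1.93 to -1.36), and was found in 16.6%, 20.1% and 6.07% of members at 1000 UMIs. Tlr2, a receptor for bacterial lipoproteins, was at 130.1, 203.7 and 48.1 CPM, and Osm, the cytokine oncostatin M, at 398.0, 458.6 and 161.3 CPM. Egr1 was at 618.5, 743.7 and 252.8 CPM, a ratio of -1.29 (-1.44 to -1.15). Cxcl2, which the rule used, had a ratio of -1.16. Cd14 was at 43.0, 115.3 and 79.9 CPM, a ratio of 0.88, and of the Toll-like receptor list 1 gene was at least 1 log2 unit lower.

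Of 9 compared chemoattractant receptors 2 were at least 1 log2 unit lower at D7, Ccrl2 (-1.16) and Fpr2 (-1.07), where 3.08% of all genes were, and 7 were not. Relative to the median gene Ccrl2 was at the limit and Fpr2 at -0.92. The list median was -0.61, C5ar1 and Ptafr had -0.15 and -0.05, and Ltb4r1 had 0.21. Cxcr2 had a ratio of 0.42 at D2 (0.34 to 0.51) and -0.61 at D7 (-0.71 to -0.52), or 0.08 and -0.45 relative to the median gene. Ccr1 was at 691.2, 1076 and 416.4 CPM in naive, D2 and D7. Cxcr4, which holds neutrophils in the BM, was at 221.8, 227.6 and 138.0 CPM, but B lineage cells held as much in naive BM, 220.8 CPM. Genes of the NADPH oxidase, the enzyme of the respiratory burst, differed little. None of the 7 was 1 log2 unit apart at either day, and the medians were 0.10 and 0.06.

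Thbs1, the adhesive protein thrombospondin 1 (chr2:118111876-118127133, plus strand), had the lowest ratio at D7. It gave 301 UMIs in 122 of 642 naive members, 190.2 CPM, 261.2 CPM at D2, and 1 UMI in 646 D7 members, 0.388 CPM. The log2 ratio was -7.11, with a counting interval from -14.25 to -6.45. At 1000 UMIs it was found in 10.9% of naive members, 15.5% at D2 and 0 of 642 at D7, which allows a share of up to 0.467%. Immature neutrophils held 148.5 CPM in naive, 402.2 CPM at D2 and 10.0 CPM at D7, Il1b-low mature cells 147.5, 453.6 and 3.59 CPM, and all kept cells 66.2, 174.4 and 12 CPM.

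The other genes among the 10 lowest at D7 were those of other cells. Hba-a2, Gzma, Ccl5, Hba-a1, Hbb-bs, Hbb-bt, Vpreb3, Cd79a and Ebf1 had ratios between -5.81 and -3.77, immunoglobulin genes apart. Hbb-bs, a hemoglobin chain, was at 775.8 CPM in naive members and 22.5 CPM at D7, and B lineage cells gave 1804 and 8.83 CPM. The 100 naive Ccl5 UMIs lay in 2 cells. B lineage cells were 28.6% of kept cells in naive BM, 27.8% at D2 and 2.61% at D7, and the 9 B lineage markers summed to 537.6 CPM in members of naive BM, 707.2 CPM at D2 and 34.9 CPM at D7.

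**Figure D5:**
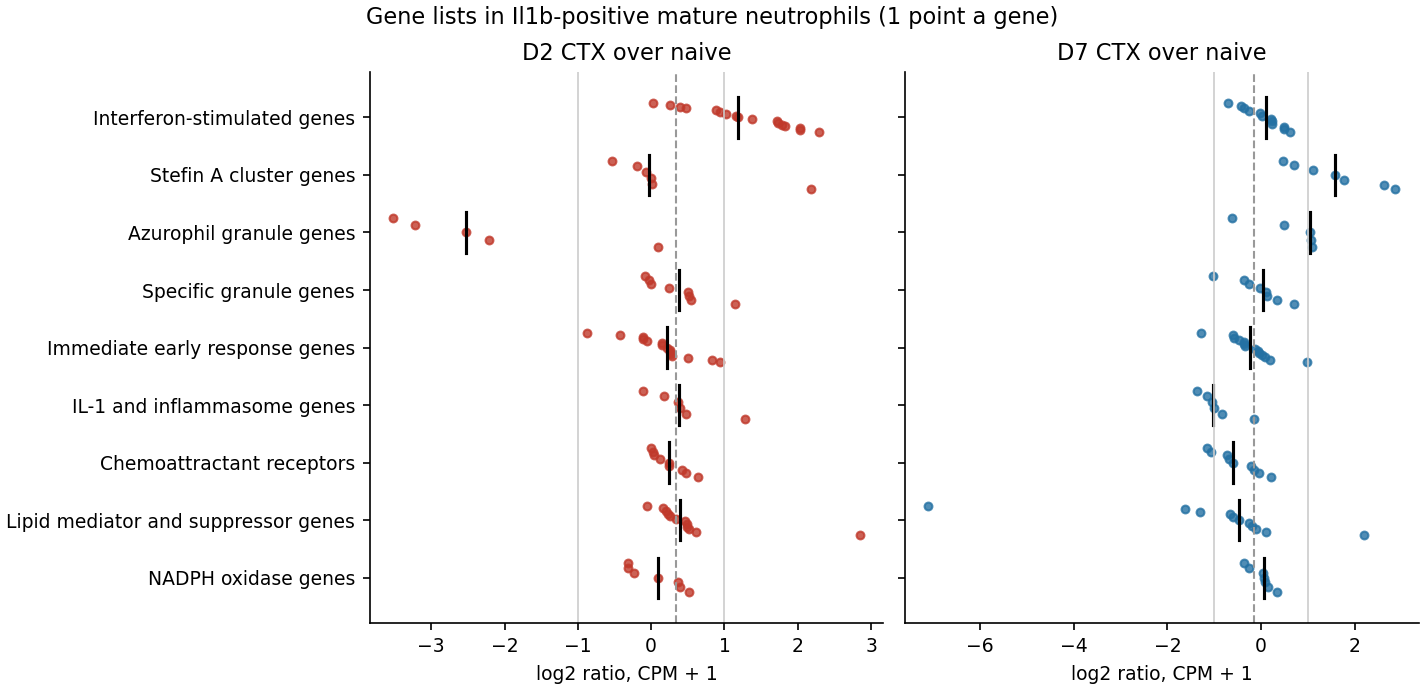
Log2 ratios of CPM + 1 over naive in Il1b-positive mature neutrophils, 1 point per compared gene of 9 lists, for D2 CTX and D7 CTX (black bars list medians, dashed line the median of all genes, grey lines at 1 log2 unit). Interferon-stimulated genes lie to the right at D2 CTX with a median of 1.18, and stefin A genes at D7 CTX with a median of 1.59.

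Other lists held few genes apart. Of Toll-like receptor genes 1 of 7 compared was higher at D2, where 5.49% of all genes were, and 1 of 5 lower at D7, where 3.08% were. Of glycolysis and hypoxia genes 1 of 12 was higher at D2 and none of 13 was apart at D7. None was apart at either day among colony-stimulating factor and cytokine receptors (10 compared at D2 and 9 at D7), 4 Fc receptor genes, 7 MHC class I genes and 6 heat shock chaperones. Fc receptor medians were 0.02 at D2 and 0.10 at D7, and MHC class I medians 0.19 and 0.13.

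Markers of other cell types were read in members. Without members that carried at least 3 UMIs of such markers, the median D2 ratio of interferon-stimulated genes was 1.19 and the median D7 ratio of stefin A genes 1.55, while 25 in place of 16 genes were higher at D7. This removal took no account of erythroid genes. Monocyte markers summed to 631.2 CPM in naive members (10 genes, none at 0), 477.7 CPM at D2 and 483.5 CPM at D7, against 372.5, 661.9 and 397.2 CPM in B lineage cells, with Ly6c2 the most abundant at 351.3, 282.9 and 253.6 CPM. Macrophage markers summed to 180.7, 238.5 and 192.3 CPM, above the 17.3, 120.6 and 83.4 CPM of B lineage cells, of which Slc40a1 gave 157.3, 208.6 and 150.8 CPM. T and NK markers summed to 393.0, 254.9 and 268.7 CPM, above the 41.4, 68.1 and 28.7 CPM of B lineage cells, of which Cd3d, also read in other neutrophils, gave 279.2, 177.6 and 232.2 CPM, and Cd3e and Trac were at 0 in naive members. Plasmacytoid markers summed to 35.4 CPM in naive, where Siglech and Ccr9 were at 0, 226.1 CPM at D2 and 57.0 CPM at D7. Tcf4 was the most abundant at D2 at 101.5 CPM, and Bst2 at D7 at 24.4 CPM. Bst2 was counted in these sums but not for the removal of members. Eosinophil markers summed to at most 13.9 CPM, with Epx and Prg2 at 0 in each library, and basophil and mast cell markers to at most 10.1 CPM. Erythroid markers summed to 1411 CPM in naive, 1476 CPM at D2 and 35.3 CPM at D7, above the level of Cxcr2 in naive and D2 members, against 3417, 1140 and 133.3 CPM in B lineage cells, and 1 cell held 32.0% of them in naive and 31.0% at D2.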

How the data were processed

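The authors deposited UMI counts per gene and cell barcode, made per the labels with Cell Ranger 3.1 against mm10 from 10x Genomics 3' V3 libraries; Seurat 5.0 is also named in the submitters' processing notes. These counts were read as deposited, and no cell annotation was used. Cells with at least 200 genes and under 20% mitochondrial UMIs were kept, 1 library of 3 pooled mice per condition, so no test was run. The members and gene lists were chosen with earlier results of these data known. UMIs were summed over the cells of a class and divided by their total, as CPM. Log2 ratios used CPM + 1, for genes with at least 100 UMIs over both classes and 50 CPM in 1. Intervals (95%) were exact Clopper-Pearson, Poisson and conditional binomial, and cover counting error only. For detection and shares cells were thinned to 1000 UMIs. Doublets were kept, and in an alternative the highest Scrublet scores were removed (0.8% per 1000 barcodes, which took 4.67% of naive, 8.66% of D2 and 3.25% of D7 members). Named genes were the markers, the rule genes, the 10 highest and 10 lowest ratios of each comparison (immunoglobulin genes apart) and list members past 1 log2 unit, or else the most abundant; others were named after their values were seen. Of the listed genes 1 was not analysed here. The alternative without cells carrying at least 3 UMIs of markers of other cell types was chosen after seeing the data. Scripts were tested on simulated data. Software was Python 3.11.15, numpy 2.4.6, scipy 1.17.1, pandas 2.3.3, scanpy 1.11.5 and matplotlib 3.10.9. Gene positions are from GENCODE M21 and promoters from RefSeq, both GRCm38, the assembly also called mm10.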

Additional observations from a re-analysis of the deposited data

Results flagged for a closer look

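In members, 7 of the 1983 genes compared at both days were at least 1 log2 unit apart from naive in opposite directions at the 2 days, and the difference between days was not tested, since there was 1 library per day and both share the naive library. Il1r2, the decoy interleukin-1 receptor, had log2 ratios of 1.28 at D2 and -1.0 at D7. Cd164, a sialomucin, had 1.0 and -1.06, and Ets2, a transcription factor, 1.05 and -1.07. Relative to the median gene these 3 were under 1 log2 unit at both days, with Il1r2 at 0.94 and -0.85, Cd164 at 0.67 and -0.90, and Ets2 at 0.71 and -0.91. Cd74, the MHC class II invariant chain, had 1.36 and -2.43, and the D7 value was 0.32 once the highest Scrublet scores were removed. The azurophil granule genes went the other way, with Elane at -3.52 and 1.04, Prtn3 at -2.53 and 1.06, and Ctsg at -3.22 and 1.08. Their D7 direction turned when cells were thinned to 1000 UMIs, to -0.79 for Elane, -0.14 for Prtn3 and -0.33 for Ctsg, and 1 member held 293 of the 808 Elane UMIs at D7.

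Cells that met the rule were also found in the sorted monocyte libraries, which the comparisons did not use. They were 0.476% of kept cells in the sorted naive library (9 of 1891, interval 0.218 to 0.902%) and 0.312% in the sorted CTX library (8 of 2564, 0.135 to 0.614%), above the 0.159% and 0.117% that 3 cells would give.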

How the results depend on the processing

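Of the values that answer a comparison, 57 under the alternatives stayed close and 47 moved, and of those for single genes and lists 1731 stayed close, 267 moved and 28 reversed; where a value moved, the cause was not tested. The log2 ratio of the member share was 1.16 at D2 with at least 4 UMIs of Il1b and Cxcl2, -0.70 at D7 at 1000 UMIs, 1.29 and -0.91 at 500 UMIs, 0.26 and -0.39 over mature neutrophils, and -1.04 at D7 over S100-high neutrophils. At D2 the genes higher and lower (131 and 11 as reported) were 63 and 25 without the 20 most abundant genes in the total, 46 and 34 with median scaling, 367 and 98 with B lineage levels subtracted, and 1648 and 437 with no filter on low genes, while 6 were lower at 1000 UMIs, 205 higher by the mean of cells' CPM and 83 higher with a pseudocount of 10 CPM. At D7 (16 and 63) they were 25 and 40, 27 and 35, 180 and 143, and 456 and 1288 under the same first 4 settings, while 40 were lower at 1000 UMIs, 34 lower at 500 UMIs and 25 higher without cells carrying markers of other cell types. Genes higher and lower than in Il1b-low cells in all 3 libraries (10 and 11) were 4 and 22 with Ngp and Camp under 1%, 6 and 2 with S100 at least 12%, 30 and 62 at 1000 UMIs, 32 and 77 at 500 UMIs, 5 and 7 by the mean of cells' CPM, 32 and 134 with no filter, and 4 and 2 without cells carrying markers of other cell types. In the same comparison 43 genes were lower with the highest Scrublet scores removed, 69 higher with B lineage levels subtracted, and 6 higher with a pseudocount of 10 CPM and 6 with median scaling. Reversals included azurophil genes, genes held by few cells and the erythroid list. At D7 Elane was -0.45 with S100 at least 12%, -0.79 at 1000 UMIs, -0.73 at 500 UMIs, -0.65 with B lineage levels subtracted and -0.21 by the mean of cells' CPM, and the azurophil median was -0.35, -0.49, -0.36, -1.12 and -0.21. Prtn3 was -0.14 and -0.36 at 1000 and 500 UMIs, and Ctsg -0.33 at 1000 UMIs. The D7 erythroid median was 2.11 with B lineage levels subtracted, Ccl5 0.48 with S100 at least 12%, and Cd74 0.32 with the highest Scrublet scores removed. At D2 Gzma was 3.50 with S100 at least 12% and 1.49 at 500 UMIs, Fn1 2.42 and 3.97 at 1000 and 500 UMIs, and Bst2 -0.38 and Irf8 -0.95 without the highest Scrublet scores. Without cells carrying markers of other cell types, Bst2 was -0.46, Irf8 -0.43, Ms4a1 -0.33, Fn1 0.24 and Gzma 0.17 at D2, and Ccl5 0.51 at D7. Ms4a1, Fn1 and Gzma were among the markers that removed these cells, which by construction lowers their levels, while Bst2, Irf8 and Ccl5 were not. No paired analysis was possible because each condition had 1 pooled library. Members had a median of 2039 to 3723 UMIs, so genes under 50 CPM in both groups of a comparison were left out.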
